A study of Danio rerio with 48 samples.

Results

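The genes described here encode the proteins of the cytoplasmic ribosome of the zebrafish (*Danio rerio*). They were chosen by name alone: the symbol begins with *rpl* or *rps* and a digit, or is one of the *rplp* stalk genes or *rpsa*, the kinases named *rps6k* are left out, and the mean level is at least 1 CPM (counts-per-million of all gene counts). This gave 84 of the 34707 genes in the files, and every gene whose name matched passed the level. Of these, 46 encode proteins of the large subunit and 36 of the small subunit, and the other 2 carry the name only: *rps19bp1* encodes a protein known in human as a regulator of the deacetylase SIRT1, and *rpl7l1* encodes a relative of Rpl7 linked to ribosome assembly. The 84 genes have 80 different symbols, since 4 symbols, *rpl5* and *rps26* among them, are each held by 2 Ensembl genes.

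Ribosomal proteins are needed in equal amounts, and their messenger RNAs, which begin with a run of pyrimidines, are known to be translated together in response to nutrients and growth signals. Members of the SMN complex assemble the spliceosomal snRNPs, the particles that remove introns, and most ribosomal protein genes have several introns. Free Rpl5 and Rpl11 are known in human cells to bind MDM2 when ribosome assembly is disturbed, and RPS27L, a relative of RPS27, is a DNA-damage response gene there whose protein also binds MDM2.

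The study asked which members of the SMN complex are needed for hair cell regeneration, and RNA-seq was made from whole larvae at 7 days post fertilization (dpf). Homozygous mutants of 7 genes were sequenced in 3 libraries each: *smn1* (allele fh229), *gemin3* (hg105) and *gemin5* (hg80), named regeneration mutants in the study, and *gemin2* (hg108), *gemin4* (hg109), *gemin6* (hg110) and *gemin7* (hg111), which regenerated hair cells. The *smn1*, *gemin3* and *gemin5* mutants each have 3 wild-type libraries of their own family. The other 4 mutants share 3 wild-type libraries, labelled 1 each from the *gemin4*, *gemin6* and *gemin7* families, with none from a *gemin2* family, so the 4 comparisons share control samples. All fish, controls included, are of the TAB-5 background, and by the methods all were exposed at 5 dpf to 10 µM copper sulfate, which kills lateral line hair cells, during 2 h and collected at 7 dpf. Mutants and siblings came from crosses of 1 heterozygous pair, were genotyped from a fin biopsy and pooled. The sources used here do not say whether the 3 libraries of a group came from separate crosses, so p-values measure the spread between these libraries, which may be technical.

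The 33 libraries held 30045993 to 88871247 counts (median 36496510), and no 2 libraries of a group agreed within sampling noise. The targeted mRNA averaged 28.6% ± 2.55 of its control mean in *gemin2*, 49.7% ± 0.726 in *gemin3*, 59% ± 12.9 in *gemin5* and 62.8% ± 7.84 in *gemin7* mutants (SD, n = 3 each), below every control library. It was at 99.3% ± 6.01 in *smn1*, 97.4% ± 13.4 in *gemin4* and 95.3% ± 15.4 in *gemin6* mutants and overlapped the controls, so there the mRNA level does not check the label. Markers of skeletal muscle, pancreas, liver, lens, nerve and epidermis were all present, as whole larvae should have. The 3 red blood cell markers found by symbol summed to 5.74 to 24.4 CPM. Other listed red blood cell symbols matched no gene, and only 1 of the 3 passed the filter on low counts. This sum is therefore no measure of blood content. The *gemin3* family, mutants and wild types, was read on another instrument with 150 bases in place of 125, so its levels are not compared with those of other families as a result. In bulk RNA, fewer cells of a type and less RNA per cell cannot be told apart.

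The 84 genes together took a large part of the larval transcriptome. They held between 7.82% and 11.2% of all counts in a library (median 8.87%), and their summed TPM (transcripts-per-million, which corrects for gene length) was between 204796 and 250189. By mean TPM over the 33 libraries, 64 of the 84 genes were above 2000 and 75 above 1000. The highest was *rps9* (ENSDARG00000011405), a small subunit protein that binds early in assembly, at 5113 TPM. *rpl34* followed at 4627 TPM, *rpl23a*, whose protein lies at the exit of the peptide tunnel, at 4590 TPM, and *rpl32* at 4556 TPM. *rps2*, whose protein lines the mRNA entry path, averaged 4411 TPM, and *rplp0*, the base of the stalk that recruits elongation factors, 4392 TPM. These means include the 6 *gemin3*-family libraries, read on another instrument, and the order without them was not tested. Single libraries ran from 4162 to 7251 TPM for *rps9* and from 2052 to 5383 TPM for *rps2*.

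The low end of the order held core, variant and name-only genes. Only 9 genes averaged below 1000 TPM and 5 below 100 TPM. Among them, *rpl22l1*, the paralogue of *rpl22*, averaged 430 TPM and *rpl11* 407 TPM, against 3521 TPM for *rpl3*, another core large subunit protein. The low place of *rpl11* holds for TPM only. In CPM, which does not correct for gene length, *rpl11* averaged 933, against 863 for *rpl34* and 130 for *rpl22l1*. *rpl7l1* averaged 70.5 TPM, *rps27l* 61.8 TPM and *rps19bp1* 25.1 TPM. The lowest was *rps11l*, at 5.02 TPM. Counts of near-identical copies (*rps27.1*, *rps27.2* and *rps27l*, *rpl22* and *rpl22l1*, *rplp2* and *rplp2l*, and the paired *rpl5* and *rps26* genes among them) were divided between them by the authors' program, so the split is uncertain.

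**Figure D1:**
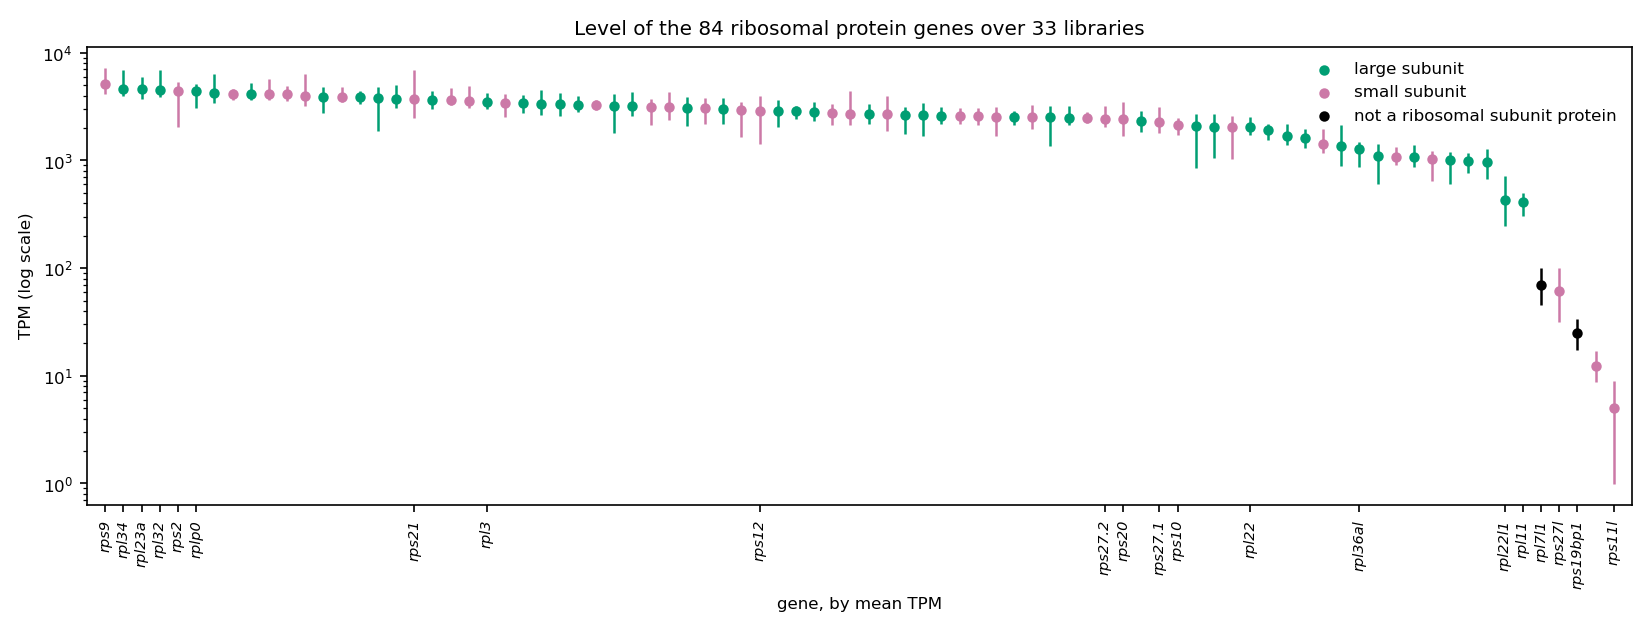
Mean level of each of the 84 genes in TPM, ordered from high to low, on a log axis, with the lowest and highest library. Most genes lie between 1000 and 5113 TPM, and the lowest is *rps11l* at 5.02 TPM.

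Levels were steady between wild-type groups apart from the *gemin3* family. The standard deviation of log2 CPM over the 12 wild-type libraries was under 0.3 in 71 of 84 genes (median 0.195), and over the 9 wild-type libraries outside the *gemin3* family it was under 0.3 in 81 genes (median 0.120). The largest over all 12 were *rps11l* at 0.69, *rps2* at 0.49 and *rps21*, a small subunit protein, at 0.42. For 14 members all 6 *gemin3*-family libraries lay below all 27 others, against 5.9% of the 20438 genes with a mean of at least 1 CPM, and for 2 members they lay above, against 6.95% of those genes. *rps2* was among the 14, at 1210 ± 126 CPM in *gemin3* mutants and 1288 ± 32.4 CPM in *gemin3* wild types, against 2609 ± 93.2 CPM in the shared wild types (SD, n = 3 each). Family, instrument and read length cannot be told apart here, and the comparison of *gemin3* mutants with their own wild types is within 1 instrument.

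Against their own controls, the ribosomal protein genes lay in a narrow band of small, nearly equal shifts, and the direction differed between mutants. The summed share of counts was 8.45%, 8.15% and 8.54% in the *gemin5* mutant libraries, against 9.28%, 8.80% and 9.22% in *gemin5* wild types, with no overlap. In *gemin7* mutants it was 9.86%, 9.91% and 9.88%, above each of the shared wild types at 9.27%, 8.97% and 9.31%. The *gemin3* mutants held 8.78%, 8.51% and 7.89%, against 9.15%, 9.56% and 8.75% in their wild types, where the highest mutant library passes the lowest wild type.

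In the other 4 mutants the summed share overlapped the controls more widely. It was 8.42%, 7.82% and 8.85% in *smn1* mutants, against 8.35%, 8.78% and 9.0% in *smn1* wild types. In *gemin6* mutants it was 8.60%, 8.66% and 9.14%, with 2 libraries below and the third within the range of the shared wild types. *gemin2* mutants held 8.78%, 9.06% and 11.2%, and *gemin4* mutants 8.87%, 8.99% and 10.5%: in each, replicate 3 alone lay far above the shared wild types. The mean summed share differed from its control mean by -8.28% in *gemin3*, -7.88% in *gemin5*, -4.19% in *gemin6* and -3.99% in *smn1* mutants, and by 7.64% in *gemin7*, 5.25% in *gemin2* and 3.00% in *gemin4* mutants. From the deposited TPM the same differences were -5.97%, -4.82%, -2.37%, -3.38%, 4.98%, 2.39% and, with the sign turned, -0.613% in *gemin4* mutants.

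**Figure D2:**
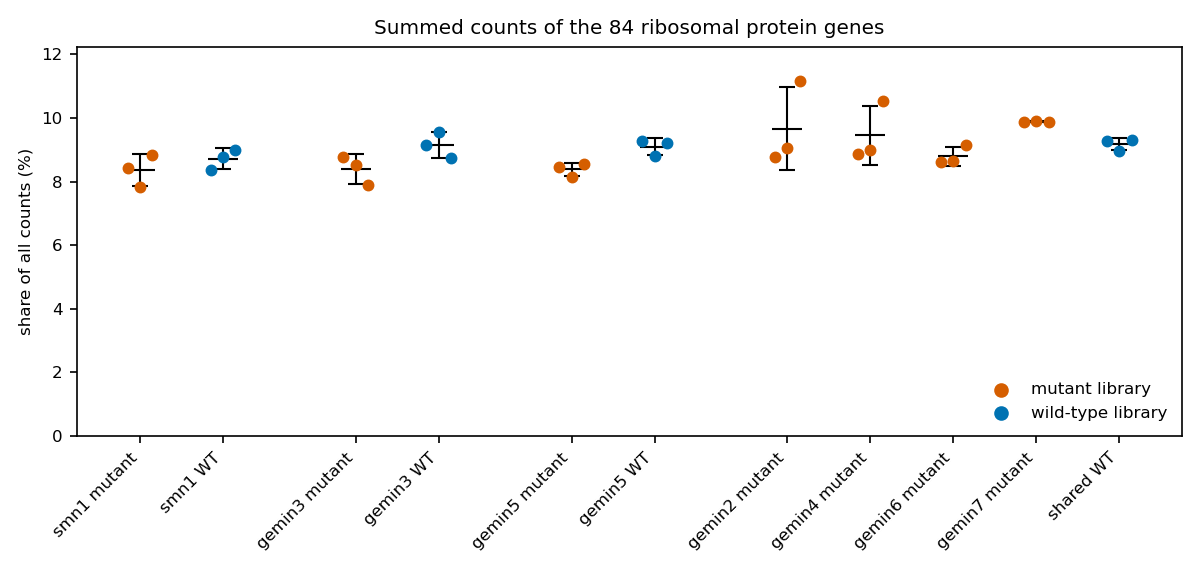
Share of all counts held by the 84 genes, in percent, for each library of the 7 mutants and 4 control groups (points, with mean and SD bars, n = 3). The *gemin5* mutants lie below and the *gemin7* mutants above all of their control libraries, and replicate 3 of *gemin2* and of *gemin4* stands above the other libraries.

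Gene by gene, each of the 84 was tested within edgeR's quasi-likelihood fit of all genes, on log2 fold changes of mutant over control. In *gemin3* mutants the median member had a log2 fold change of -0.17, against -0.01 over all 24229 genes tested, and only 5 of the 84 were above 0, against 48.8% of all genes. The members lay close together: the middle of their distribution ran from -0.20 to -0.11, and 65 were within 0.1 of the median, while the standard error of a single member was 0.0974 at the median. All 3 mutant libraries lay below all 3 wild types for 32 members, against 8.64% of all genes. Large subunit genes had a median of -0.18 and small subunit genes of -0.16.

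In *gemin5* mutants the median was -0.14, against 0.00 over all 22601 genes, with 5 members above 0, against 50.4% of all genes. The quartiles were -0.15 and -0.12, so 75 of the 84 were within 0.1 of the median. For 36 members the 3 mutant libraries lay below the 3 wild types, against 8.98% of all genes. Both subunits had a median of -0.14. In *smn1* mutants the members were centred on the controls, with a median of -0.00, quartiles of -0.02 and 0.02 and 37 of 84 above 0, against 52.4% of all genes. This centring depended on single libraries: without mutant replicate 2 the median was 0.07 and 77 members were above 0, and without mutant replicate 3 it was -0.08 and 6 were above 0. There 1 member lay below all wild types, against 6.63% of all genes, and 1 lay above, against 5.4%.

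The members of the 4 comparisons with the shared wild types lay likewise in a band. In *gemin7* mutants the median was 0.12, 82 members were above 0, against 48.9% of all genes, and for 41 members all mutant libraries lay above all wild types, against 6.31% of all genes. In *gemin6* mutants the median was -0.13, with 4 members above 0, against 50.0% of all genes, and 17 members below all wild types, against 4.06%. The medians of 0.18 in *gemin2* and 0.16 in *gemin4* mutants, with 81 and 82 members above 0 against 50.0% and 50.1% of all genes, rested on 1 library each. Without replicate 3 the *gemin2* median was 0.02 and the *gemin4* median -0.01. The number of members with all mutant libraries above all wild types was 10 in *gemin2* and 2 in *gemin4* mutants, against 14.3% and 5.92% of all genes. Against the own-family wild-type library alone the median was -0.02 in *gemin6*, 0.11 in *gemin4* and 0.08 in *gemin7* mutants. On the length-corrected scale of limma on log2(TPM + 1) all genes themselves shifted, and the members had a median of -0.08 against 0.05 over all genes in *gemin3*, -0.07 against 0.05 in *gemin5*, -0.03 against 0.07 in *gemin6* and -0.05 against -0.02 in *smn1* mutants. On that scale the members had 0.04 against -0.10 over all genes in *gemin2*, 0.00 against -0.10 in *gemin4* and 0.07 against -0.04 in *gemin7* mutants. Members share libraries and their scaling, so counts of members that move together are not counts of independent events.

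**Figure D3:**
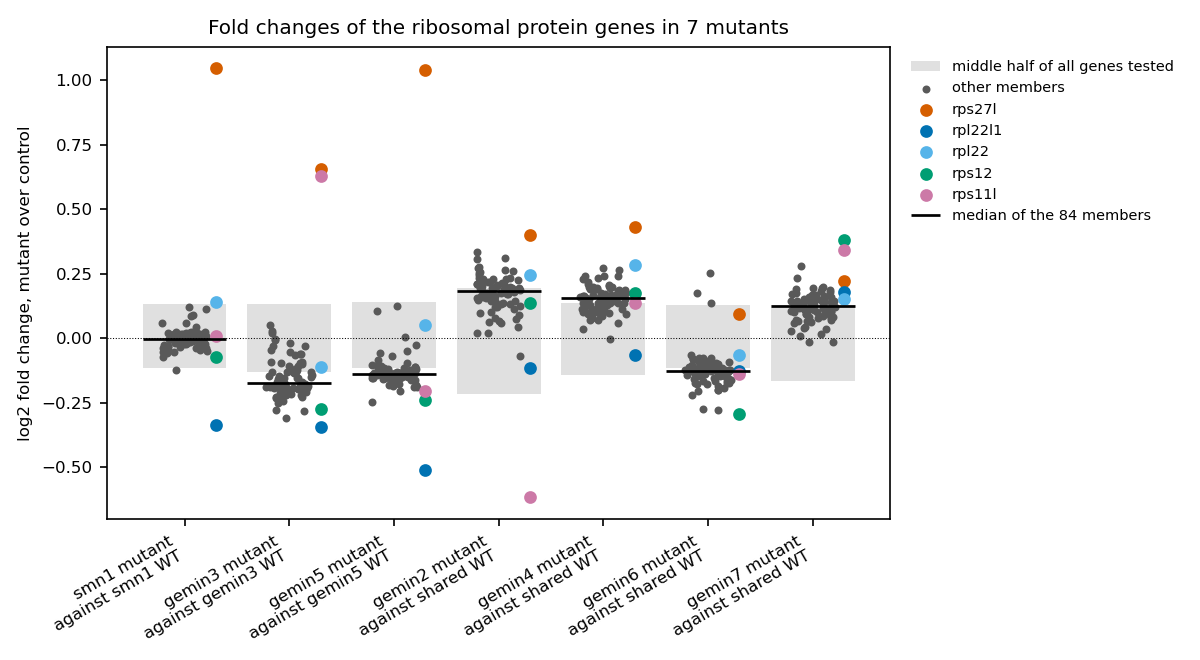
Log2 fold change of each of the 84 genes in each mutant against its control (points), beside the middle of the distribution of all genes tested. The members form a narrow band that lies below 0 in *gemin3*, *gemin5* and *gemin6* mutants and above 0 in *gemin2*, *gemin4* and *gemin7* mutants. *rps27l* lies above and *rpl22l1* below the band in the regeneration mutants and also in *gemin2* and *gemin4* mutants.

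Few members passed the test on their own. At an adjusted p under 0.05 over all genes in edgeR's test, 1 of 84 members was called in *gemin3* mutants, against 0.978% of all genes, and 1 in *gemin5* mutants, against 0.907%, and both were *rps27l*. By edgeR no member was called in *smn1* (0.0921% of all genes), *gemin2* (5.39%), *gemin4* (0.0173%), *gemin6* (0%) or *gemin7* mutants (0%). At an unadjusted p under 0.05 in edgeR's test, 13 members passed in *gemin3* (11.4% of all genes) and 17 in *gemin5* mutants (11.6%), of which 11 and 16 were lower, against 5.56% and 5.2% of all genes. At the same level 2 passed in *smn1* (5.93% of all genes), 2 in *gemin2* (20.8%), 1 in *gemin4* (5.68%), 2 in *gemin6* (3.69%) and 3 in *gemin7* mutants (8.23%). Leaving out 1 library at a time gave 3 to 33 members at this level in *gemin3*, with the highest without wild-type replicate 3, and 2 to 59 in *gemin5* mutants, with the highest without wild-type replicate 2. The replicate block gave 37 and 70 there, and 1 fit of all 33 libraries 8 and 2. No share over all genes at this level stands beside the counts from these other fits. With the block, adjusted calls over all genes rose too, from 0.978% to 1.98% in *gemin3* and from 0.907% to 7.52% in *gemin5* mutants. DESeq2 called 2 members in *gemin5* (2.73% of all genes), 2 in *gemin3* (3.08%) and 1 in *smn1* mutants (0.794%). By DESeq2 no member was called in *gemin2* (9.22% of all genes), *gemin4* (0.416%), *gemin6* (0.104%) or *gemin7* mutants (0.381%).

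Same-numbered mutant and wild-type libraries were the most alike in the *smn1*, *gemin3* and *gemin5* families, less clearly for replicates 1 and 2 of *gemin3* and *gemin5*. With the number as a block edgeR called 13 members in *gemin5* mutants, against 7.52% of all genes by that fit. Of the 13, 12 were lower, against 3.11%. The 12 that fell in the blocked fit were *rpl22l1*, *rps20*, *rps12*, *rpl12*, *rpl7a*, *rpl23a*, *rplp2l*, *rps26* (ENSDARG00000030408), *rps14*, *rpl23*, *rps23* and *rps3*, named after their values were seen. They come from both subunits: Rps3 sits at the mRNA entry, Rps23 in the decoding centre, Rps14 and Rps26 near the mRNA exit, and Rpl12 and Rplp2l belong to the stalk and its base. After *rpl22l1*, the largest fall was in *rps20*, a protein of the small subunit head, at a log2 fold change of -0.25 (adjusted p 0.0117 by edgeR with the block). The block gave 2 calls in *smn1* mutants, *rps27l* and *rpl22l1*, against 1.54% of all genes, and left 1 in *gemin3* mutants, against 1.98%.

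*rps27l* (ENSDARG00000100513) had all mutant libraries above all wild types in each of the regeneration mutants. Its level was 69.8, 72.7 and 73.2 CPM in *gemin3* mutants, against 45.8, 47.0 and 43.5 CPM in *gemin3* wild types. It was 46.5, 51.9 and 49.3 CPM in *gemin5* mutants, against 25.7, 21.7 and 24.5 CPM in *gemin5* wild types. It was 53.2, 47.7 and 72.8 CPM in *smn1* mutants, against 29.6, 26.6 and 28.0 CPM in *smn1* wild types. In all 3 families every mutant library lay above every wild type, and *smn1* mutant replicate 3 was the highest of its group.

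The log2 fold change of *rps27l* was 1.04 ± 0.0892 in *gemin5* mutants (SE, adjusted p 0.00425, edgeR) and 0.65 ± 0.0686 in *gemin3* mutants (SE, adjusted p 0.00584, edgeR). In *gemin3* mutants the adjusted p by edgeR was 0.0738 without mutant replicate 2 and 0.0545 without mutant replicate 3. In *smn1* mutants it was 1.05 ± 0.159 and missed the threshold (SE, adjusted p 0.110, edgeR), while the paired fit gave 1.03 ± 0.107 (SE, adjusted p 0.00527, edgeR with the replicate block) and DESeq2 an adjusted p of 3.00e-06. Leaving out 1 *smn1* library at a time gave 0.85 to 1.16. The low-level *rps11l* also had all *gemin3* mutant libraries above all wild types, at 0.541, 0.578 and 0.425 CPM, against 0.420, 0.256 and 0.327 CPM in *gemin3* wild types. Its log2 fold change was 0.63 ± 0.267 and was not called (SE, adjusted p 0.431, edgeR).

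In the other mutants *rps27l* was closer to its controls. It was 43.9, 47.1 and 58.1 CPM in *gemin2* mutants and 46.0, 47.1 and 58.5 CPM in *gemin4* mutants, against 30.2, 37.4 and 45.3 CPM in the shared wild types. *gemin6* mutants had 40.3, 41.1 and 40.3 CPM and *gemin7* mutants 42.5, 42.1 and 47.9 CPM. The shared wild types, which come from 3 families, spread more than any other wild-type group, and *gemin4* was the only 1 of these 4 mutants whose libraries all lay above them. The log2 fold changes were 0.40, 0.43, 0.09 and 0.22 in *gemin2*, *gemin4*, *gemin6* and *gemin7* mutants (adjusted p 0.252, 0.867, 0.991 and 0.717, edgeR). In *gemin2* and *gemin4* mutants *rps27l* was still the highest of the 84 members, as in the regeneration mutants, against medians of 0.18 and 0.16.

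The effect of the 3 regeneration mutants minus that of the other 4 was tested in a fit of all 33 libraries. *rps27l* was the 1 member called, with a difference in log2 fold change of 0.62 ± 0.131 (SE, adjusted p 0.0193, edgeR), against 0.538% of all genes. The call was lost without replicate 1, 2 or 3 of all groups, at adjusted p-values of 0.0793, 0.737 and 0.0716 by edgeR. The difference stayed between 0.47 and 0.78, and each of these fits had fewer libraries in every group. The call was kept by DESeq2 (adjusted p 0.00235) and by edgeR with the replicate block (adjusted p 0.00725), RLE scaling (0.0219) or no filter (0.0243). The median member had a difference of -0.18, and 3 of 84 were above 0, against 51.4% of all genes. In this contrast 13 members were lower at an unadjusted p under 0.05, against 3.04% of all genes. The single mutants did not divide by side: the median member had -0.003 in *smn1* and -0.13 in *gemin6* mutants. Without their replicate 3 the medians of *gemin2* and *gemin4* mutants were 0.02 and -0.01. The controls also differ between the sides. In either direction 14 members passed an unadjusted p under 0.05 in the contrast, and the number was 10, 1 and 20 without replicate 1, 2 and 3 of all groups. No share over all genes stands beside these either-direction counts, so they show only how far the number moved.

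*rps27.1* and *rps27.2*, which encode the standard small subunit protein, did not follow *rps27l*. Their log2 fold changes were -0.19 and -0.15 for *gemin3*, -0.12 and -0.06 for *gemin5* and -0.00 and 0.02 for *smn1*, none called. Of the TPM summed over the 3 genes, *rps27l* made up 1.39%, 1.73% and 1.58% in *gemin5* mutants, against 0.754%, 0.693% and 0.719% in *gemin5* wild types. The share was 1.62%, 1.64% and 1.72% in *gemin3* mutants, against 0.951%, 0.953% and 0.945% in *gemin3* wild types, and 1.71%, 1.72% and 2.12% in *smn1* mutants, against 1.00%, 0.856% and 0.888% in *smn1* wild types. The groups were apart in these 3 comparisons and overlapped in the other 4, where mean shares were 1.31% to 1.44% in mutants and 1.18% in the shared wild types.

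*rpl22l1* (ENSDARG00000010244) was the lowest member by log2 fold change in all 3 regeneration mutants. It was also the lowest member in *gemin4* mutants, at -0.06 against a median of 0.16. Rpl22l1 and Rpl22 are alternative large subunit proteins that bind RNA, and in mouse Rpl22 is known to hold down *Rpl22l1*. *rpl22l1* had 108, 98.2 and 88.6 CPM in *gemin5* mutants, against 164, 123 and 134 CPM in *gemin5* wild types. It had 154, 150 and 137 CPM in *gemin3* mutants, against 201, 191 and 165 CPM in *gemin3* wild types. It had 76.0, 87.3 and 79.9 CPM in *smn1* mutants, against 92.8, 118 and 96.6 CPM in *smn1* wild types. No mutant library reached its wild types in any of the 3 families.

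The log2 fold change of *rpl22l1* was -0.51 ± 0.122 in *gemin5* (SE, adjusted p 0.134, edgeR), -0.34 ± 0.0959 in *gemin3* (SE, adjusted p 0.217, edgeR) and -0.34 ± 0.115 in *smn1* mutants (SE, adjusted p 0.743, edgeR), so none passed. With the replicate block it passed in *gemin5* mutants at -0.50 ± 0.0658 (SE, adjusted p 0.00186, edgeR) and in *smn1* mutants at -0.33 ± 0.0622 (SE, adjusted p 0.0481, edgeR). In *gemin3* mutants it did not pass with the block. Of 13 settings there it passed only without wild-type replicate 3, at -0.42 (adjusted p 0.0258, edgeR). Over left-out libraries its adjusted p in *gemin3* mutants ran up to 0.681 by edgeR. In the other mutants the log2 fold change of *rpl22l1* was -0.11 in *gemin2*, -0.06 in *gemin4*, -0.13 in *gemin6* and 0.18 in *gemin7*, and each group overlapped the shared wild types.

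**Figure D4:**
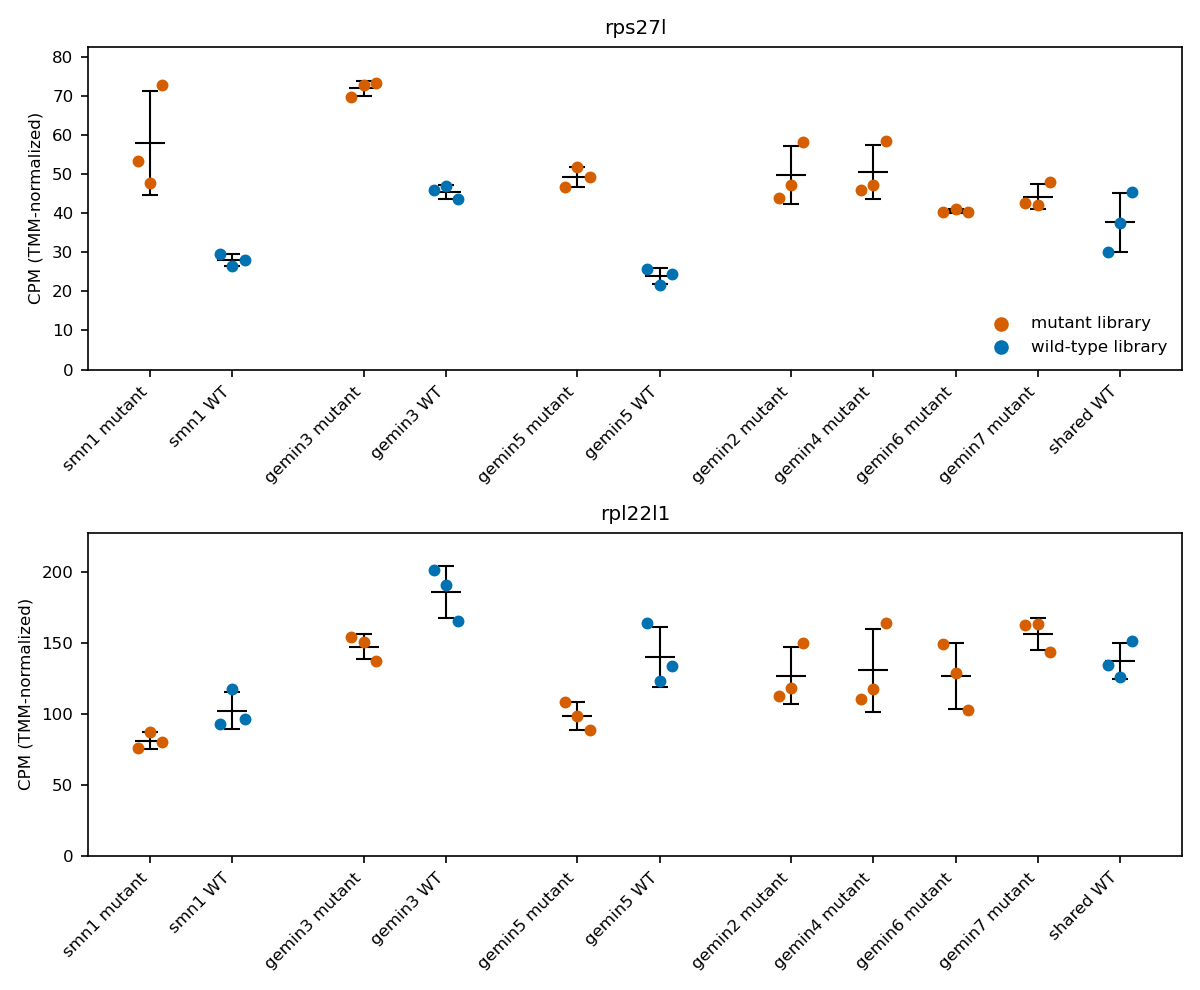
CPM of *rps27l* (upper panel) and *rpl22l1* (lower panel) in each library, with the mean and SD bars of each group (n = 3). All regeneration mutant libraries lie above their own wild types for *rps27l*, as at 49.3 against 24.5 CPM in replicate 3 of *gemin5*, and below them for *rpl22l1*.

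Set against its partner, *rpl22l1* had a lower share in the regeneration mutants and in *gemin2* and *gemin4* mutants. *rpl22* itself had log2 fold changes near 0, none called: 0.05 for *gemin5*, 0.14 for *smn1* and -0.11 for *gemin3*. For *gemin2* and *gemin4* it had 0.24 and 0.28, not called and larger in size than the -0.11 and -0.06 of *rpl22l1*. *rpl22l1* made up 13.6%, 12.8% and 11% of the TPM of both genes in *gemin5* mutants, against 18.8%, 16.7% and 16.4% in *gemin5* wild types. The share was 23.2%, 22.5% and 22.6% in *gemin3* mutants, against 26%, 25.9% and 25.3% in *gemin3* wild types, and 9.95%, 12.7% and 8.96% in *smn1* mutants, against 13.8%, 16.5% and 12.9% in *smn1* wild types. It was also below each of the shared wild types (18.2%, 20.1% and 21.2%) in *gemin2* mutants, at 15.4%, 15.7% and 15.6%, and in *gemin4* mutants, at 16.3%, 15.7% and 15.7%.

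*gemin6* mutants, at 20.8%, 19.2% and 15.9%, and *gemin7* mutants, at 19.5%, 19.4% and 18.4%, overlapped the shared wild types. The share of *rpl22l1* was thus below every control library in 5 of 7 mutants, and the share of *rps27l* above every control library in 3. Each of these 8 differences gave p = 0.1 in a two-sided exact permutation test, the smallest that 3 against 3 libraries allow, and 0.175 after Benjamini-Hochberg adjustment over the 14 tests of both shares, so none could pass.

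**Figure D5:**
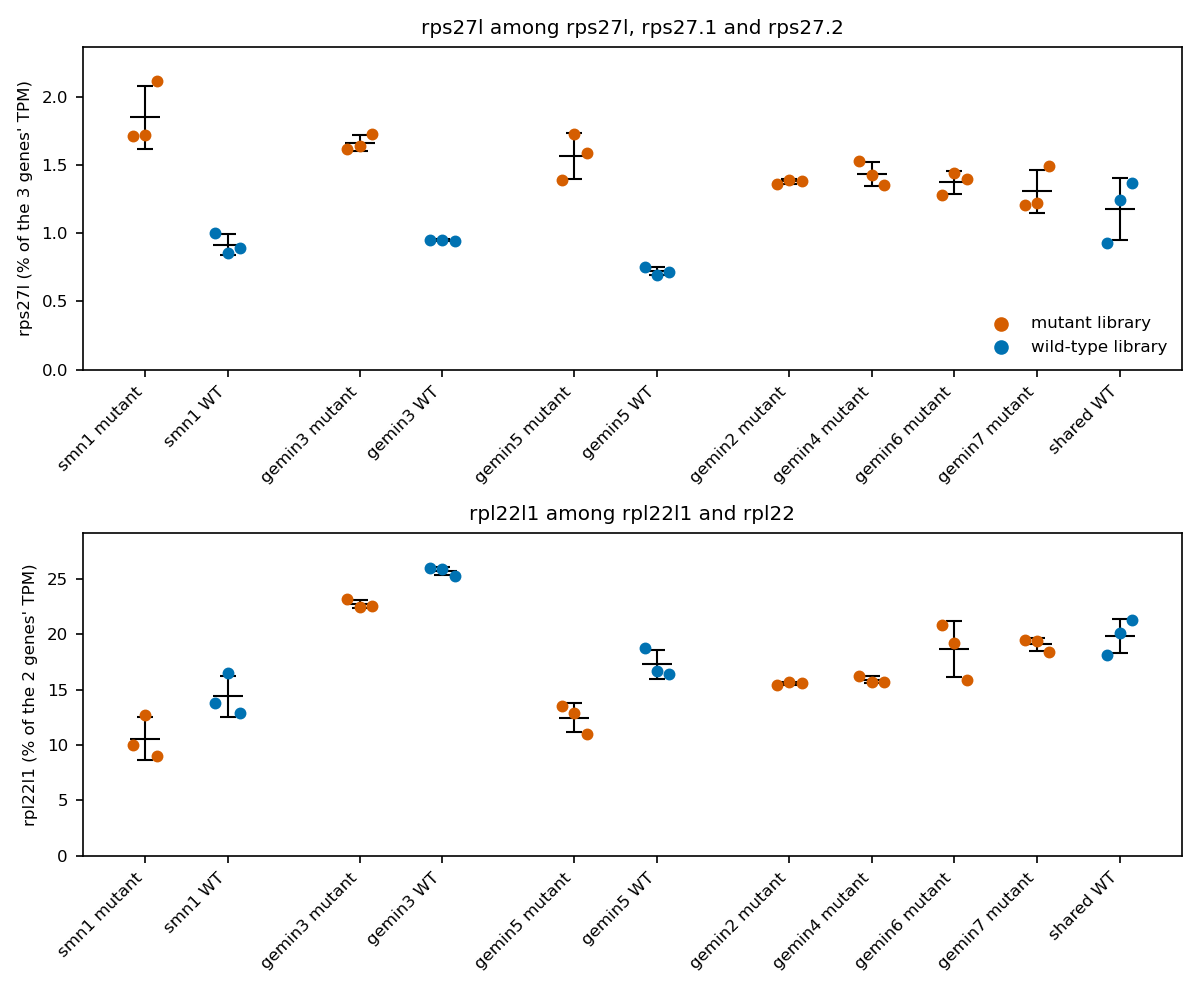
Share of *rps27l* in the TPM of *rps27l*, *rps27.1* and *rps27.2* (upper panel) and of *rpl22l1* in the TPM of *rpl22l1* and *rpl22* (lower panel), in percent, per library with group mean and SD bars (n = 3). The share of *rps27l* is apart from its controls in *smn1*, *gemin3* and *gemin5* mutants, and the share of *rpl22l1* in these and in *gemin2* and *gemin4* mutants.

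Of the genes of MDM2-binding large subunit proteins, the *rpl5* genes lay near the median member, and *rpl11* lay above the upper quartile of the members in the regeneration mutants. *rpl11* had log2 fold changes of -0.05 for *gemin5*, -0.10 for *gemin3* and 0.09 for *smn1*. The *rpl5* genes, ENSDARG00000015862 and ENSDARG00000020197, had -0.14 and -0.14 for *gemin5*, -0.18 and -0.19 for *gemin3* and -0.01 and 0.01 for *smn1*. None was called by edgeR in any of the 7 comparisons. *rpl3* ranged from -0.19 in *gemin3* to 0.15 in *gemin2* mutants and *rpl36al*, an exit-site protein, from -0.23 in *gemin3* to 0.22 in *gemin2* mutants, also without a call. The name-only *rps19bp1* had 0.17 in *gemin6* and -0.07 in *gemin2* mutants, and *rpl7l1* had its largest value, 0.33, in *gemin2* mutants (adjusted p 0.106, edgeR).

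Other members stood out with less support and were named after their values were seen. *rps12*, a small subunit protein, had a log2 fold change of 0.38 ± 0.0936 in *gemin7* mutants (SE, adjusted p 0.563, edgeR), with means of 1055 ± 38.3 CPM in *gemin7* mutants and 804 ± 53.8 CPM in the shared wild types (SD, n = 3 each). In *gemin6* mutants, set against the same wild types, *rps12* had -0.29 (adjusted p 0.991, edgeR), at a mean of 662 ± 43.3 CPM. *rps10*, a small subunit protein near the mRNA entry, had 0.28 in *gemin7* and -0.27 in *gemin6* mutants, neither called.

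When *gemin2* mutants were set directly against the mean of *gemin4*, *gemin6* and *gemin7* mutants, 1 member was called, *rps11l* (ENSDARG00000093606), against 13.6% of all genes. It had 0.796, 1.09 and 1.37 CPM in *gemin2* mutants, against 1.74, 1.58 and 2.20 CPM in *gemin4*, 1.73, 1.46 and 1.44 CPM in *gemin6* and 2.22, 2.15 and 2.04 CPM in *gemin7* mutants. All *gemin2* libraries lay below all of the others. The log2 difference was -0.73 ± 0.191 (SE, adjusted p 0.0204, edgeR). It was not called without replicate 1 (-0.53, adjusted p 0.256, edgeR) or replicate 2 (-0.77, adjusted p 0.185, edgeR). No library held more than 103 reads of *rps11l* and the lowest held 21.

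Genes that work with the ribosome were counted in the same fits. A list of 21 genes held elongation and initiation factors and other genes whose human messenger RNAs begin with a run of pyrimidines. It had medians from -0.10 in *gemin3* to 0.13 in *gemin2* mutants. The 1 gene called was *EIF3K*, a subunit of initiation factor eIF3, in *gemin2* mutants, where 5.39% of all genes were called. The 63 ribosome biogenesis genes had medians of -0.09 in *gemin3*, -0.01 in *gemin5*, 0.06 in *smn1* and 0.23 in *gemin2* mutants. Of the 63, *RRS1*, a factor of large subunit assembly, was called higher in *gemin2* mutants, against 5.39% of all genes. In *gemin6* mutants the biogenesis genes had a median of 0.16, on the other side of 0 from the -0.13 of the ribosomal protein genes.

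The 73 mitochondrial ribosomal protein genes, which serve a separate ribosome, had medians between -0.02 in *gemin5* and 0.07 in *gemin6* and *gemin7* mutants, with 0 called by edgeR in all 7 comparisons. The nuclear oxidative phosphorylation genes had medians between -0.04 in *gemin6* and 0.17 in *gemin4* mutants, and 3 of 85 were called, all higher, in *gemin2* mutants, where 5.39% of all genes were called. A further list of 12 genes held *mdm2* and DNA-damage response genes, *rps27l* itself among them. From it edgeR called *mdm2*, the ubiquitin ligase named above, and *rps27l* in *gemin3* mutants. In *gemin5* mutants it called *CCNG1*, cyclin G1, and *rps27l*. The medians of the list were 0.28 in *gemin3* and 0.23 in *gemin5* mutants. Of all genes, 0.978% were called in *gemin3* and 0.907% in *gemin5* mutants. The same list had medians of 0.46 in *smn1*, 0.33 in *gemin2*, 0.15 in *gemin4*, -0.06 in *gemin6* and 0.21 in *gemin7* mutants, with 0 called by edgeR there. *mdm2* had log2 fold changes of 0.68 in *gemin3*, 0.66 in *gemin5*, 0.62 in *smn1* and 0.53 in *gemin2* mutants. It missed the threshold in *gemin5*, *smn1* and *gemin2* mutants, at adjusted p-values of 0.0756, 0.0750 and 0.0507 by edgeR. In *gemin4*, *gemin6* and *gemin7* mutants *mdm2* had 0.39, 0.02 and 0.28. *CCNG1* had 0.77 in *gemin5*, 0.71 in *smn1*, 0.50 in *gemin3* and 0.41 in *gemin2* mutants. In *gemin4*, *gemin6* and *gemin7* mutants it had 0.18, 0.16 and 0.19. The 16 proliferation genes had medians of -0.08 in *gemin3*, -0.06 in *gemin5*, -0.01 in *smn1* and -0.27 in *gemin2* mutants. Their medians were -0.36 in *gemin4*, 0.07 in *gemin6* and 0.12 in *gemin7* mutants. Of the 16, 2 fell in *gemin2* mutants, *MCM7* and 1 gene with the symbol *RRM2*, where 5.39% of all genes were called. Another gene holds the symbol *RRM2*. When *gemin2* was set against the mean of *gemin4*, *gemin6* and *gemin7* mutants, 1 *RRM2* gene was called lower and 1 higher. There 13.6% of all genes were called.

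Tissue markers moved in some of the same comparisons. Of all genes, edgeR called 0.907% in *gemin5*, 0.978% in *gemin3* and 5.39% in *gemin2* mutants. Of 10 exocrine pancreas markers, 4 fell in *gemin5* (median -0.52) and 2 in *gemin3* mutants (median -0.27), while 2 rose in *gemin2* mutants (median 0.18), and 0 were called by edgeR in the other 4. Their summed level was 13602 to 15045 CPM in *gemin5* mutants, against 18427 to 21313 CPM in *gemin5* wild types, and 19942 to 20784 CPM in *gemin3* mutants, against 22565 to 28117 CPM in *gemin3* wild types. Of the 12 liver markers, *CP*, ceruloplasmin, rose in *gemin3* and *gemin5* mutants and fell in *gemin2* mutants, and of 9 lens and photoreceptor markers *CRYAA*, an alpha crystallin, fell in *gemin3* and *gemin5* mutants. Muscle and neural markers had 0 calls by edgeR in the 7 comparisons. Of 5 epidermis markers, 4 were above 0 in *gemin2* mutants without a call (median of the list 0.39) and the other, *epcam*, fell. The part of these markers in the shifts of the ribosomal protein genes was not tested.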

How the data were processed

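Whole-larva RNA-seq libraries (33) were analysed, and 15 small RNA libraries were not used. Per the labels and methods, the authors trimmed reads with Trimmomatic 0.36 and aligned them with STAR to GRCz10 with Ensembl 91 genes without pseudogenes (the processing notes also name STAR 2.5.4a and HISAT2 2.2.1.0). They then ran RSEM, and deposited 1 table per library of expected counts and TPM (transcripts-per-million) for each gene. RSEM divides reads between similar genes, which makes paralogue levels uncertain. Symbols came from a gene table (26982 of 34707 identifiers) and the study's tables (394).

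Expected counts were rounded and tested with edgeR 4.0.16 (quasi-likelihood, TMM scaling, filterByExpr, R 4.3.3, Benjamini-Hochberg adjustment over all genes tested), each mutant with its own control, and over all 33 libraries for the difference between sets of mutants. CPM values are TMM scaled, and summed shares use unscaled counts. TMM assumes that most genes do not change. Shares of paralogues used the deposited TPM and an exact permutation test. Simulated counts were used to test the fits.

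Members and lists were chosen with earlier results of these data known. In each comparison all members called were named (at most 10), beside a fixed set of members and the extremes of level and spread. Other names were chosen after their values were seen. Alternatives were DESeq2 1.42.0, RLE scaling, no filter, a replicate block, leaving out each library, 1 fit of all libraries, limma 3.58.1 on log2(TPM + 1) and own-family wild types. Deviations from group means correlated between same-numbered mutant and wild-type libraries in *smn1* (r = 0.627, 0.721 and 0.728), *gemin3* (0.363, 0.384 and 0.606) and *gemin5* (0.537, 0.491 and 0.781). The largest r with another number was below 0 in *smn1*. It was 0.251, 0.223 and -0.485 in *gemin3* and 0.330, 0.319 and -0.549 in *gemin5*. The pairing is thus less sure for replicates 1 and 2 of *gemin3* and *gemin5*. Precision is set by the spread between libraries, except for *rps11l*, whose counts were 21 to 103. No coordinates or sequences were used here. Results that need certain members or related genes by name are not reported here.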

Additional observations from a re-analysis of the deposited data

Results flagged for a closer look

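The effect on *rps27l* differed between the regeneration mutants and the other mutants, by a log2 difference of 0.62 (adjusted p 0.0193, edgeR). This call did not survive leaving out any of the replicate numbers, where every group had fewer libraries. It was kept by DESeq2, the replicate block, RLE scaling and no filter. The effect on *rps11l* differed between *gemin2* and the mean of *gemin4*, *gemin6* and *gemin7* mutants, by a log2 difference of -0.73 (adjusted p 0.0204, edgeR), at a level of a few CPM.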

How the results depend on the processing

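Several results depended on the setting, and with 3 libraries a group the spread is wide. In *smn1* mutants DESeq2 called 1 member (0.794% of all genes), the replicate block 2 (1.54%) and the fit of all libraries 1, in place of 0. In *gemin3* mutants DESeq2 called 2 (3.08% of all genes), and leaving out 1 library at a time gave 0 to 2. In *gemin5* mutants DESeq2 called 2 (2.73% of all genes) and the replicate block 13 (7.52%). Leaving out each replicate number gave 0 to 0 calls for the regeneration contrast and 0 to 1 for the *gemin2* contrast. No share over all genes stands beside the calls from the fit of all libraries or from left-out libraries. Those calls show only how far the number moved. The median of *gemin6* mutants was -0.027 by limma on TPM and -0.025 against the own-family wild type. On the TPM scale all genes had a median of -0.10 in *gemin2* and *gemin4* mutants, where the members had 0.04 and 0.00. The summed level of *gemin7* mutants was a log2 ratio of 0.070 by TPM. The log2 fold change of *rps27l* in *gemin6* mutants ran from -0.044 to 0.26 over left-out libraries, and that of *rpl22* in *gemin5* mutants from -0.0027 to 0.081. Over left-out libraries the median ran from -0.08 to 0.07 in *smn1*, 0.02 to 0.28 in *gemin2* and -0.01 to 0.24 in *gemin4* mutants, and it kept its sign in the others. The causes were not tested.

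Against the shared wild types the replicate numbers share only a number, and there the block called 0 members in all 4 mutants. With 3 libraries a group the standard error of 1 member was 0.0720 to 0.160 at the median of the 7 comparisons, against median shifts of at most 0.18, which limits calls of single members.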
